A study of Mus musculus with 36 samples.

Results

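Activins are secreted dimers of inhibin beta subunits and belong to the TGF-beta family. A dimer binds a type II receptor such as Acvr2a, which joins and activates a type I receptor, and the activated type I receptor phosphorylates Smad proteins that move to the nucleus. Follistatins bind activins outside the cell and keep them from their receptors, and Smad7 blocks the pathway from within. In neurons, activin A, the dimer encoded by Inhba, is known as a product of synaptic activity with roles at synapses and in survival.

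The 9 genes described here were picked by name from the 26709 genes of the RNA-seq table. They are the activin subunits Inhba and Inhbb, the inhibitors Fst and Fstl3, the type I receptors Acvr1, Acvr1b and Acvr1c, the type II receptor Acvr2a and the inhibitory Smad7. Of these, 8 had a mean of at least 10 normalised reads over the 18 samples and were tested among 16209 genes. Fstl3, with a mean of 6.21, was not.

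Cortical neurons (CNs) came from CD-1 mouse embryos at embryonic day 15 and were cultured for 7 days. All cultures were silenced for 2 h with 100 µM AP-5, which blocks NMDA receptors, and 1 µM TTX, which blocks sodium channels. They then received 10 ng/ml BDNF, the ligand of the TrkB receptor, or 55 mM KCl, which depolarises the membrane, for 1, 6 or 10 h. Controls stayed in AP-5 and TTX for 3, 8 or 12 h in total, so that every control was a silenced culture and not an untreated one. Each of these 9 groups had 2 RNA-seq and 2 ATAC-seq samples, and the 6 controls of the 3 times served as 1 set. Dissociated cortex also holds cells other than neurons.

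RNA libraries held 8.51 to 36.7 M reads (median 11.6), and ATAC libraries 1.24 to 6.24 M reads in peaks (median 3.55). The KCl 6 h library B stood apart, because 1 gene took 3.26% of its values against 0.641 to 1.01% in the other 17. The 8 neuronal markers summed to 47160 to 58376 normalised reads in every library. The 5 markers of astrocytes and radial glia summed to 10558 to 15187 in controls, 9942 to 13591 with BDNF and 8596 to 16139 with KCl, and the 2 markers of dividing cells to 3352 to 5730, 2908 to 4705 and 2287 to 5309. The 5 microglial markers reached 117 at most, and the 4 markers of endothelial and mural cells 386 to 1393 in controls. P2ry12 of microglia and Cldn5 of endothelium had means under 10. The 4 fibroblast markers summed to 2221 to 3690. The 5 markers of the oligodendrocyte lineage summed to 5757 to 6204 in controls. The part of these cells in the members' values was not tested, and in bulk RNA fewer cells of a type and less RNA per cell cannot be told apart.

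Per kilobase of exon, the control levels of the members fell into a wide range. The receptors Acvr2a (533 ± 41.0 normalised reads per kb, SD, n = 6) and Acvr1b (523 ± 28.3) were the highest, and their spreads overlapped. Inhbb (134 ± 8.99) and Acvr1 (122 ± 5.52) came next and also overlapped in range. Fst followed at 54.4 ± 2.38 and Smad7 at 31.2 ± 3.01. Inhba stood at 7.65 ± 0.992, Fstl3 at 2.94 ± 0.929 and Acvr1c at 1.22 ± 0.260. Thus silenced CNs held far more transcript of the beta B than of the beta A subunit, and far more of the receptors Acvr1b and Acvr2a than of any ligand or inhibitor listed here.

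**Figure D1:**
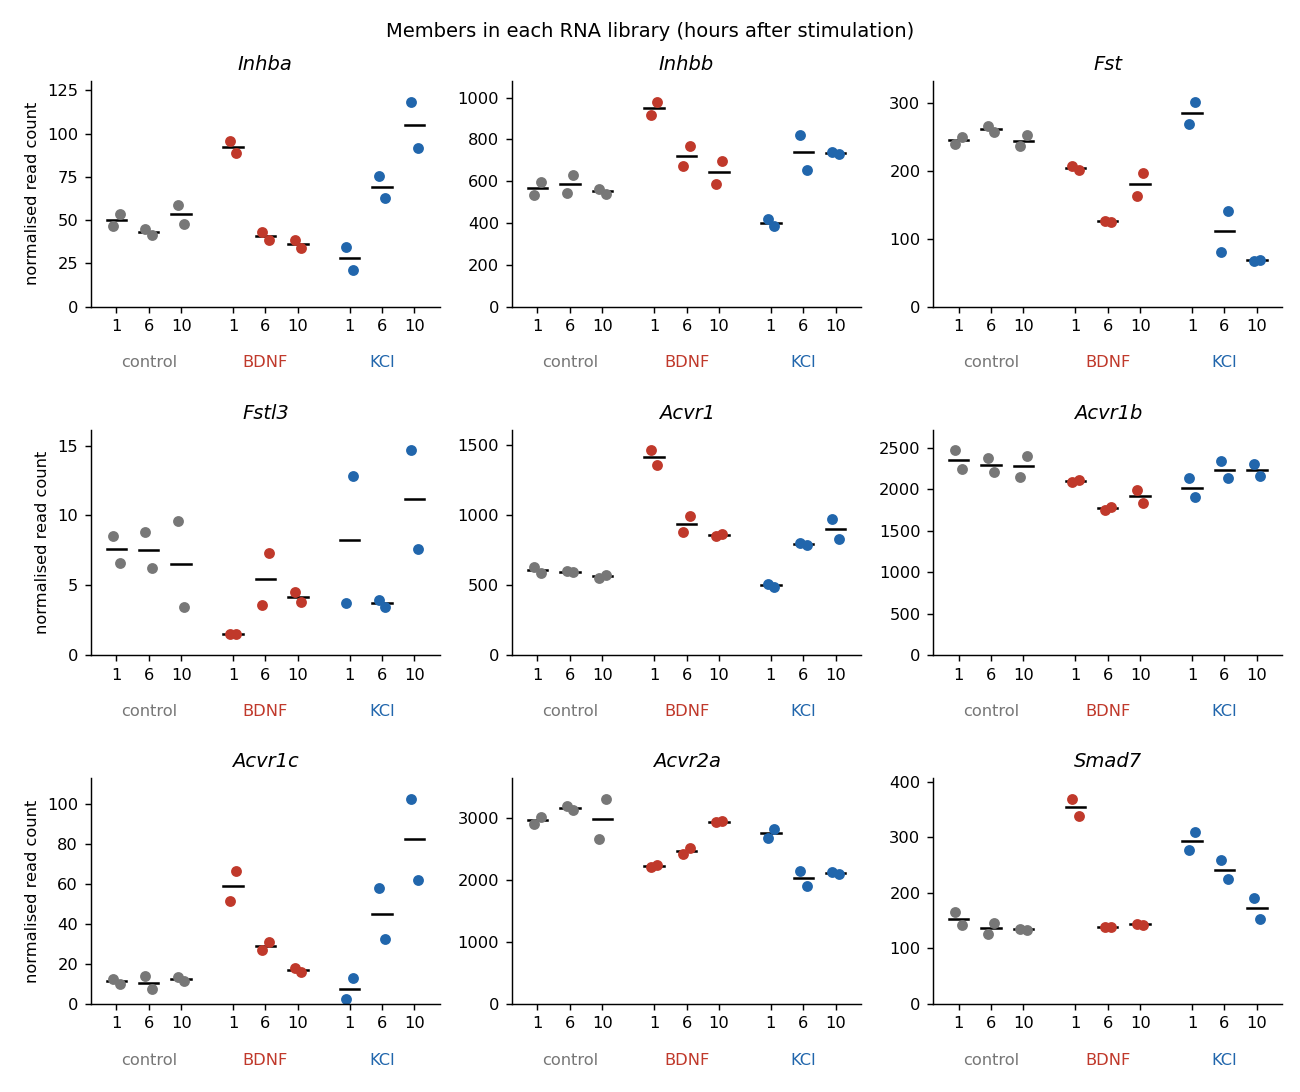
Normalised read count (linear axes from 0) of each member in the 18 RNA libraries, by stimulus and hours; points are libraries and bars are the means of 2. Inhba, Inhbb, Acvr1 and Acvr1c were high at 1 h with BDNF (red), while with KCl (blue) they were at or below controls (grey) at 1 h and above them at 6 and 10 h.

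Called against controls (limma, Benjamini-Hochberg adjusted p below 0.1 over all genes tested), 5 of the 8 members rose and 1 fell with BDNF at 1 h, where 21.3% of all genes rose and 19.0% fell. With KCl at 1 h, 1 rose and 5 fell, beside 26.5% and 28.2% of all genes. At 6 h, 3 rose and 3 fell with BDNF, against a background of 22.1% and 21.1%. KCl at 6 h raised 5 and lowered 2, where 33.4% of all genes were called higher and 33.1% lower. At 10 h, BDNF left 1 member higher and 3 lower (background 21.1% and 19.5%), and KCl 5 higher and 2 lower (29.0% and 28.2%). The median log2 fold change of the 8 members was 0.83 with BDNF at 1 h and -0.22 with KCl at 1 h, beside medians of all genes within 0.01 of 0 in both. Many genes moved in these cultures, and with 8 members a count differs from these shares by a small number of genes. The members were also chosen with earlier results of these data known, so they are not a blind set.

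The controls of the 3 times were also compared with each other. Between the 6 h and 1 h controls 0 of 8 members were called, as were 0 of all genes (0%), and the 10 h controls gave the same counts (0%). By limma 164 and 181 genes, and 0 members, had an unadjusted p under 0.05 in these 2 comparisons, and edgeR and DESeq2 on the recovered reads also called 0 genes, with 236 and 193 genes by edgeR and 56 and 39 by DESeq2 under that unadjusted p.

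Inhba encodes the beta A subunit (chr13:16011851-16031621 in mm10, plus strand). Its 6 controls ranged from 41.5 to 58.9 normalised reads with a median of 47.1. With BDNF it read 95.8 and 88.5 after 1 h, 43.2 and 38.4 after 6 h, then 38.4 and 34.1 after 10 h. With KCl it read 34.6 and 21.4 after 1 h, 75.7 and 62.5 after 6 h, then 119 and 91.5 after 10 h. Both BDNF 1 h samples lay above every control, both KCl 1 h samples lay below every control, and the order of the stimuli was turned round at 10 h. The summed oligodendrocyte lineage markers, at 5757 to 6204 in controls, took a like course to Inhba, Inhbb, Acvr1 and Acvr1c, with group means of 6378, 5526 and 5724 at 1, 6 and 10 h of BDNF and 4562, 7021 and 6827 with KCl, and their part in these genes' values was not tested. Inhba was thus 1.88-fold higher with BDNF at 1 h (log2 fold change 0.91 ± 0.19 SE, adjusted p = 0.000579 by limma) and 0.569-fold of controls with KCl (-0.81 ± 0.19, adjusted p = 0.00101). It was 1.41-fold higher with KCl at 6 h (adjusted p = 0.0261) and 2.12-fold at 10 h (1.09 ± 0.19, adjusted p = 5.31e-05). The KCl 6 h call was lost without the KCl 6 h library A (log2 0.36, adjusted p = 0.228). With BDNF the later values were -0.25 ± 0.19 at 6 h (adjusted p = 0.318) and -0.42 ± 0.19 at 10 h (adjusted p = 0.0919). The 10 h call was lost without either BDNF 10 h library (adjusted p = 0.168 and 0.400), without control 1 h library B (0.140) and without control 10 h library A (0.152) or B (0.110). It was also lost by DESeq2 on the recovered reads (0.166), with no filter on low values (0.139) and against the controls of the same time alone (0.110).

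Inhbb encodes the beta B subunit (chr1:119415465-119422248, minus strand). Controls ranged from 536 to 632 normalised reads (median 554). BDNF gave 917 and 982 after 1 h, 673 and 770 after 6 h, then 589 and 695 after 10 h. KCl gave 417 and 384 after 1 h, 823 and 655 after 6 h, then 738 and 731 after 10 h. As for Inhba, both 1 h samples with BDNF were above, and both with KCl below, every control. The rise with BDNF was 1.67-fold at 1 h (log2 0.74 ± 0.09, adjusted p = 1.22e-06 by limma) and 1.27-fold at 6 h (adjusted p = 0.00507), and at 10 h the log2 value was 0.17 ± 0.09 (adjusted p = 0.148). The 6 h call was lost without the BDNF 6 h library B (log2 0.25, adjusted p = 0.157), and the 10 h value was called without control 6 h library B (0.21, adjusted p = 0.0920) or BDNF 10 h library A (0.29, adjusted p = 0.0785). With KCl, Inhbb fell to 0.706-fold at 1 h (log2 -0.50 ± 0.09, adjusted p = 8.95e-05) and then rose to 1.29-fold at 6 h and 1.3-fold at 10 h (adjusted p = 0.00123 and 0.00171).

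Fst encodes follistatin, which binds activin dimers with high affinity (chr13:114452290-114458951, minus strand). Controls were tight, from 236 to 265 normalised reads with a median of 251. After 1 h of BDNF it read 207 and 201, after 6 h 126 and 124, and after 10 h 163 and 197. KCl gave 269 and 302 after 1 h, 79.6 and 141 after 6 h, then 67.2 and 68.6 after 10 h. All KCl samples at 6 and 10 h, and all BDNF samples, lay below every control, and both KCl 1 h samples lay above. Fst had fallen to 0.504-fold with BDNF at 6 h (log2 -0.99 ± 0.14, adjusted p = 1.07e-05 by limma) and to 0.718-fold at 10 h (adjusted p = 0.0129). With KCl it fell to 0.428-fold at 6 h (-1.23 ± 0.14, adjusted p = 1.72e-07) and 0.275-fold at 10 h (-1.86 ± 0.14, adjusted p = 6.84e-10). At 1 h neither value was called, at -0.29 ± 0.14 with BDNF (adjusted p = 0.121) and 0.19 ± 0.14 with KCl (adjusted p = 0.28). The BDNF 1 h value did pass on the recovered reads with edgeR (adjusted p = 0.0902), DESeq2 (0.0954) and edgeR with TMM scaling (0.0676). It also passed by limma with the replicate block by column letter (adjusted p = 0.0941). The BDNF 10 h call was lost without library A of that group (log2 -0.34). In the 4 groups in which Fst was called lower, marker sums of other cells were low too. The astrocyte and radial glia markers averaged 9661 and 9759 with KCl and 10290 and 10416 with BDNF at 6 and 10 h, against 10558 to 15187 in single controls. Those of dividing cells averaged 2364 and 2385 with KCl and 3048 and 3090 with BDNF, against 3352 to 5730, and their part in the Fst values was not tested. Exons of Fst overlap those of a gene on the other strand, Gm47040, and whether reads were counted by strand was not given in the sources used here.

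Fstl3 encodes a second follistatin-like binder of activins (chr10:79777272-79782630, plus strand). It was near the limit of detection in all libraries, from 1.52 to 14.7 normalised reads. Controls spanned 3.43 to 9.61 (median 7.56), both BDNF 1 h samples lay below them at 1.52 and 1.53, and KCl 10 h read 14.7 and 7.62. Only without the filter on low values did it enter a test, where the BDNF 1 h value was -1.64 ± 0.44 (adjusted p = 0.00916 by limma). The KCl values there were 0.03 ± 0.44 at 1 h, -0.75 ± 0.44 at 6 h and 0.56 ± 0.44 at 10 h, and none was called. Its exons share bases with Prss57 on the other strand.

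Acvr1 encodes ALK2, a type I receptor best known for BMP signals that also binds activins (chr2:58388644-58567157, minus strand). Controls ranged from 552 to 632 normalised reads (median 592). BDNF gave 1466 and 1362 after 1 h, 878 and 992 after 6 h, then 854 and 869 after 10 h. KCl gave 510 and 490 after 1 h, 803 and 790 after 6 h, then 972 and 831 after 10 h. Every stimulated sample lay outside the control range, above it in all but the KCl 1 h pair. Acvr1 had the smallest adjusted p of the members at 1 h with BDNF, at 2.39-fold (log2 1.26 ± 0.07, adjusted p = 6.46e-12 by limma), and stayed at 1.58-fold at 6 h and 1.46-fold at 10 h (adjusted p = 2.85e-07 and 6.1e-06). KCl lowered it to 0.847-fold at 1 h (-0.24 ± 0.07, adjusted p = 0.009) and raised it to 1.35-fold at 6 h and 1.52-fold at 10 h (adjusted p = 2.46e-05 and 5.43e-07).

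Acvr1b encodes ALK4, the main type I receptor for activins (chr15:101174067-101213684, plus strand). It was the steadiest member, with group means on the log2 scale spanning 0.41. Controls ranged from 2150 to 2472 normalised reads (median 2309), and the lowest pair, BDNF at 6 h, read 1746 and 1792. It read 2094 and 2107 after 1 h of BDNF and 1988 and 1840 after 10 h. KCl gave 2137 and 1904 after 1 h, 2340 and 2134 after 6 h, then 2309 and 2165 after 10 h. All BDNF samples and both KCl 1 h samples lay below every control, while the KCl pairs of 6 and 10 h reached into the control range. The fall with BDNF was to 0.767-fold at 6 h (log2 -0.38 ± 0.07, adjusted p = 0.000103 by limma) and 0.829-fold at 10 h (adjusted p = 0.00341). With KCl at 1 h it fell to 0.875-fold (adjusted p = 0.0194), a call that was lost without library B of that group (-0.11, adjusted p = 0.321). The BDNF 10 h call missed the threshold without library B of that group (-0.21, adjusted p = 0.103). The BDNF 1 h value (-0.14 ± 0.07, adjusted p = 0.124) was called without control 10 h library A (-0.16, adjusted p = 0.0782) and with TMM scaling (-0.16, adjusted p = 0.0665).

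Acvr1c encodes ALK7, a type I receptor for activin B and related ligands (chr2:58267453-58357895, minus strand). It was the lowest receptor in controls, at 7.26 to 13.7 normalised reads (median 12.0), and it had the widest range of group means, 3.55 on the log2 scale. BDNF gave 51.7 and 66.4 after 1 h, 27.0 and 31.1 after 6 h, then 18.1 and 15.9 after 10 h. KCl gave 2.47 and 12.8 after 1 h, 58.0 and 32.4 after 6 h, then 103 and 62.1 after 10 h. All stimulated samples but the KCl 1 h pair lay above every control. Acvr1c rose 4.92-fold with BDNF at 1 h (log2 2.3 ± 0.37, adjusted p = 5.89e-05 by limma) and 2.48-fold at 6 h (adjusted p = 0.00935), and at 10 h the log2 value was 0.57 ± 0.37 (adjusted p = 0.255). With KCl it rose 3.67-fold at 6 h (1.88 ± 0.37, adjusted p = 0.000203) and 6.68-fold at 10 h (2.74 ± 0.37, adjusted p = 4.33e-06). The fall with KCl at 1 h (-0.81 ± 0.37, adjusted p = 0.0819) rested on library A, without which the value was 0.19 (adjusted p = 0.711), and edgeR on the recovered reads did not call it (adjusted p = 0.379). It was also lost without control library A of 1 h (adjusted p = 0.111), 6 h (0.125) or 10 h (0.121), and without control 10 h library B (0.107). The BDNF 6 h call missed the threshold without library B of that group (1.21, adjusted p = 0.102). Exons of Acvr1c overlap those of Gm13544 on the other strand.

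Acvr2a encodes a type II receptor that binds activins directly (chr2:48814109-48903269, plus strand), and each of its called changes against controls was a fall. Controls ranged from 2650 to 3305 normalised reads (median 3071). BDNF gave 2211 and 2235 after 1 h, 2422 and 2514 after 6 h, then 2930 and 2945 after 10 h. KCl gave 2678 and 2822 after 1 h, 2147 and 1904 after 6 h, then 2122 and 2086 after 10 h. The BDNF samples at 1 and 6 h and the KCl samples at 6 and 10 h lay below every control. It fell to 0.735-fold with BDNF at 1 h (log2 -0.44 ± 0.07, adjusted p = 3.34e-05 by limma) and 0.816-fold at 6 h (adjusted p = 0.00232), and the 10 h value was -0.04 ± 0.07 (adjusted p = 0.682). With KCl it was -0.14 ± 0.07 at 1 h (adjusted p = 0.111), called without control library A of 1 h (-0.15, adjusted p = 0.0912) or 10 h (-0.18, adjusted p = 0.0249). It then fell to 0.669-fold at 6 h and 0.696-fold at 10 h (adjusted p = 3.28e-07 and 2.47e-06). Some of its exon bases are shared with Orc4 on the other strand.

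Smad7 encodes the inhibitory Smad that turns the type I receptors off and is itself a target of the pathway. Controls ranged from 126 to 165 normalised reads (median 138). BDNF gave 370 and 339 after 1 h, 139 and 138 after 6 h, then 144 and 142 after 10 h. KCl gave 277 and 309 after 1 h, 259 and 225 after 6 h, then 191 and 154 after 10 h. It was the one member that rose with both stimuli at 1 h, 2.51-fold with BDNF (log2 1.33 ± 0.11, adjusted p = 4.83e-09 by limma) and 2.07-fold with KCl (1.05 ± 0.11, adjusted p = 8.85e-08). With BDNF the pairs at 6 and 10 h were back inside the control range (-0.02 ± 0.11 and 0.02 ± 0.11, adjusted p = 0.897 and 0.895). With KCl it was still 1.71-fold higher at 6 h (adjusted p = 4.15e-06) and 1.22-fold at 10 h (adjusted p = 0.0414), and the 10 h call was lost without library A of that group (0.13, adjusted p = 0.509) and by DESeq2 on the recovered reads (0.135).

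**Figure D2:**
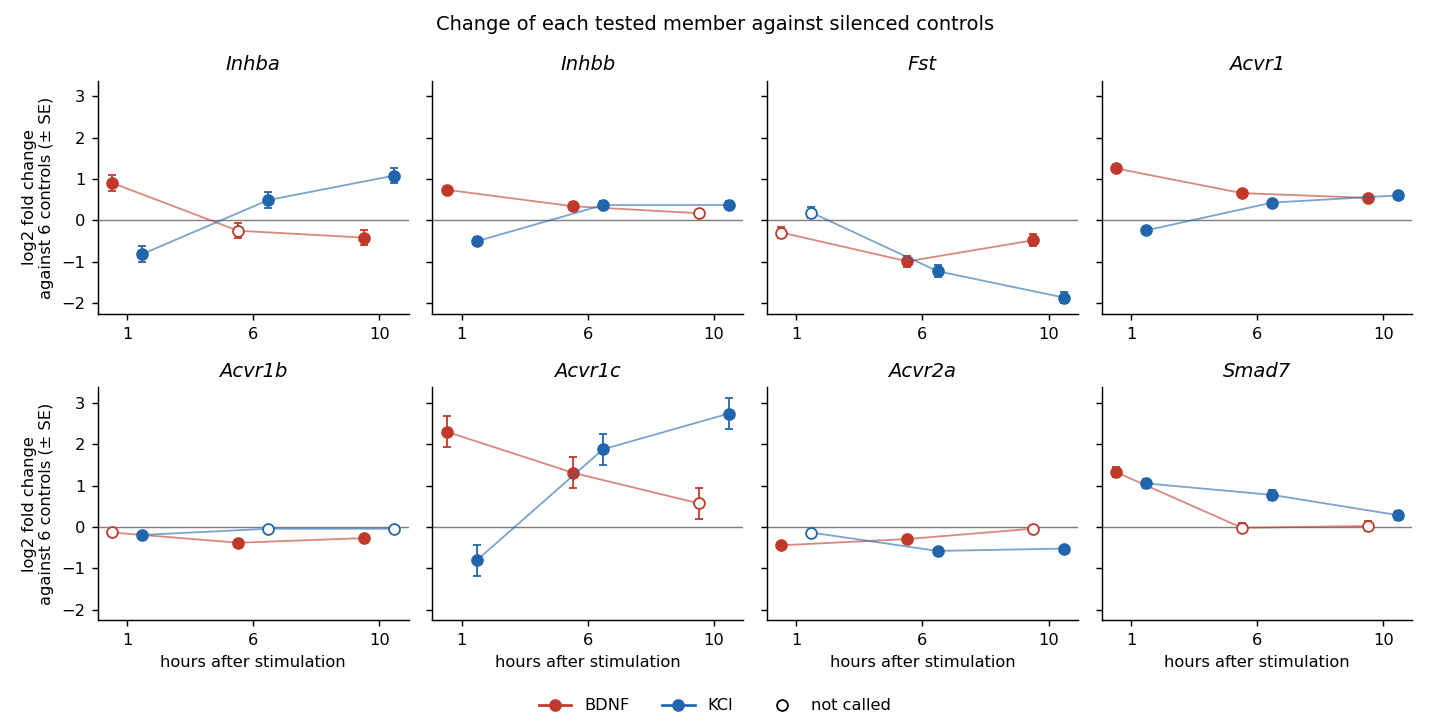
Log2 fold change of the 8 tested members against the 6 controls (y, ± SE) by hours after stimulation (x), BDNF in red and KCl in blue; filled points were called at adjusted p below 0.1 and open points were not. Inhba went from 0.91 to -0.42 with BDNF and from -0.81 to 1.09 with KCl between 1 and 10 h, while Fst reached -1.86 with KCl.

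BDNF and KCl were then compared with each other at each time, without the controls in the difference. At 1 h, 4 of 8 members were higher with BDNF and 2 were lower, where 24.6% of all genes were higher and 18.2% lower. Acvr1c was 8.60-fold (log2 3.11 ± 0.46, adjusted p = 1.66e-05 by limma), Inhba 3.30-fold (1.72 ± 0.23, adjusted p = 3.1e-06), Acvr1 2.82-fold (1.5 ± 0.09, adjusted p = 1.66e-11) and Inhbb 2.37-fold (1.24 ± 0.11, adjusted p = 1.12e-08) higher with BDNF. The KCl 1 h pair of Acvr1c held only 2 and 12 reads (2.47 and 12.8 normalised), so the size of its ratio is imprecise. The pair lower with BDNF was Fst (-0.48 ± 0.17, adjusted p = 0.0333) and Acvr2a (-0.31 ± 0.09, adjusted p = 0.00725). The Fst call was lost on leaving out BDNF 1 h library A (adjusted p = 0.101) or B (0.129) and without KCl 1 h library B (0.187). Smad7 was not called, at 0.27 ± 0.14 (adjusted p = 0.129).

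At 6 h, 2 members were higher with BDNF and 3 lower, against 29.6% and 27.8% of all genes. Acvr2a was higher (log2 0.29 ± 0.09, adjusted p = 0.00794 by limma), as was Acvr1 (0.23 ± 0.09, adjusted p = 0.0358), while Smad7 (-0.80 ± 0.14, adjusted p = 5.3e-05), Inhba (-0.74 ± 0.23, adjusted p = 0.00968) and Acvr1b (-0.34 ± 0.08, adjusted p = 0.00147) were lower. The Acvr1 call was lost on leaving out BDNF 6 h library B (0.14, adjusted p = 0.312) and, barely, without KCl 6 h library B (0.22, adjusted p = 0.104). Fst stood at 0.24 ± 0.17 (adjusted p = 0.263) and was called higher without the KCl 6 h library B (0.65, adjusted p = 0.00104).

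At 10 h, 2 members were higher with BDNF and 3 lower, where the background was 23.1% and 21.8%. Acvr1c (log2 -2.17 ± 0.46, adjusted p = 0.000811 by limma) and Inhba (-1.5 ± 0.23, adjusted p = 2.14e-05) were now lower with BDNF, the reverse of 1 h, and Fst was 2.61-fold higher (1.39 ± 0.17, adjusted p = 1.83e-06). Acvr2a was also higher (0.48 ± 0.09, adjusted p = 0.000131). Acvr1b was lower (-0.23 ± 0.08, adjusted p = 0.0321), a call lost on leaving out BDNF 10 h library B (adjusted p = 0.225) or KCl 10 h library A (0.183). The values of Acvr1 (-0.06 ± 0.09), Inhbb (-0.20 ± 0.11) and Smad7 (-0.26 ± 0.14) were not called (adjusted p = 0.624, 0.169 and 0.149). Inhbb was called without BDNF 10 h library B (-0.32, adjusted p = 0.0812) and Smad7 without KCl 10 h library B (-0.41, adjusted p = 0.0609).

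**Figure D3:**
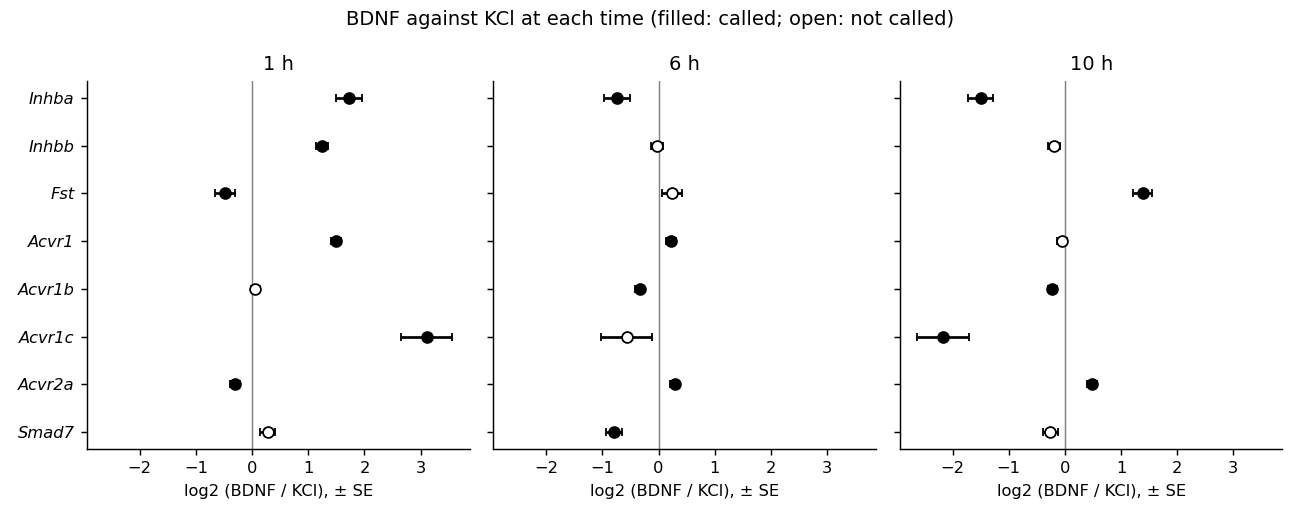
Log2 ratio of BDNF to KCl (x, ± SE) for the 8 tested members at 1, 6 and 10 h; filled points were called and open points were not. Inhba and Acvr1c lie to the right at 1 h (1.72 and 3.11) and to the left at 10 h (-1.5 and -2.17), and Fst moves from -0.48 to 1.39. The Acvr1c ratio at 1 h is set against a KCl pair of 2.47 and 12.8 normalised reads.

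Later and earlier times of the same stimulus were compared directly as well. From 1 to 6 h of BDNF, 6 of 8 members fell and 0 rose, where 17.7% of all genes fell and 15.8% rose. The falls were largest for Smad7 (log2 -1.35 ± 0.14, adjusted p = 1.86e-07 by limma) and Inhba (-1.16 ± 0.23, adjusted p = 0.000601), and Acvr1 (-0.60 ± 0.09), Fst (-0.70 ± 0.17), Inhbb (-0.40 ± 0.11) and Acvr1b (-0.25 ± 0.08) made up the rest. The fall of Inhbb was lost on leaving out BDNF 6 h library A (-0.30, adjusted p = 0.142), and that of Acvr1b without BDNF 1 h library A (adjusted p = 0.104) or B (0.115) or BDNF 6 h library A (0.138). Acvr1c stood at -0.99 ± 0.46 (adjusted p = 0.119) and was called lower by edgeR (adjusted p = 0.018) and DESeq2 (0.0438) on the recovered reads, with TMM scaling (0.0189) and with a pseudocount of 5 (0.05). From 6 to 10 h of BDNF 0 of 8 members were called, with 0.216% of all genes called in either direction. Here the values of the members lay between -0.74 and 0.51 on the log2 scale. At an unadjusted p under 0.05 limma held 949 genes, edgeR 1013 and DESeq2 777, with 2 members in each, and neither edgeR nor DESeq2 called a member after adjustment.

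From 1 to 6 h of KCl, 4 members rose and 3 fell, against 30.9% and 28.7% of all genes. Acvr1c rose by 2.68 ± 0.46 on the log2 scale (adjusted p = 5.3e-05 by limma), Inhba by 1.31 ± 0.23 (adjusted p = 5.53e-05), Inhbb by 0.87 ± 0.11 (adjusted p = 1.09e-06) and Acvr1 by 0.67 ± 0.09 (adjusted p = 1.83e-06). The size of the Acvr1c rise is imprecise too, as it starts from the KCl 1 h pair of 2.47 and 12.8 normalised reads. Fst (-1.42 ± 0.17, adjusted p = 6.47e-07), Acvr2a (-0.44 ± 0.09, adjusted p = 0.000173) and Smad7 (-0.28 ± 0.14, adjusted p = 0.095) fell. The Smad7 call did not hold on leaving out KCl 1 h library B (adjusted p = 0.366) or KCl 6 h library B (0.409), by DESeq2 on the recovered reads (0.143) and with no filter on low values (0.131). From 6 to 10 h of KCl, 1 member rose and 2 fell, beside 12.9% and 9.66% of all genes. Inhba rose by 0.59 ± 0.23 (adjusted p = 0.0816), lost on leaving out KCl 6 h library B (adjusted p = 0.368) or KCl 10 h library A (0.451), by DESeq2 on the recovered reads (0.112) and with no filter on low values (0.119). Fst fell by 0.64 ± 0.17 on the log2 scale (adjusted p = 0.0165), lost on leaving out KCl 6 h library B (-0.23, adjusted p = 0.407) or KCl 10 h library A (adjusted p = 0.112), and Smad7 by 0.49 ± 0.14 (adjusted p = 0.0195), lost on leaving out KCl 10 h library B (adjusted p = 0.172).

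The 5 tested genes whose pattern over the 18 RNA libraries was most like that of Acvr1c, the member with the widest range, were Fam43a (Pearson r = 0.906 on log2 values), Alpk1 (0.898), Usp24 (0.896), Tpbgl (0.885) and Ptger4 (0.883). These are descriptions across libraries that share groups and depth, and no test was made on them. Control levels of these genes differed widely, from 5.10 normalised reads for Ptger4, a prostaglandin receptor, to 1102 for Usp24, a deubiquitinase.

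The rest of the pathway was followed with a list of 52 further genes, of which 42 passed the filter. With BDNF at 1 h, 15 of the 42 rose and 8 fell (median log2 0.12), beside 21.3% and 19.0% of all genes, and with KCl at 1 h, 12 rose and 9 fell (0.07), beside 26.5% and 28.2%. At 6 h BDNF raised 9 and lowered 13 (-0.14, background 22.1% and 21.1%), and KCl raised 16 and lowered 6 (0.22, background 33.4% and 33.1%). At 10 h BDNF raised 5 and lowered 10 (-0.16, background 21.1% and 19.5%), and KCl raised 12 and lowered 9 (0.12, background 29.0% and 28.2%). The 6 negative regulators within the cell include the ubiquitin ligases Smurf1 and Smurf2. With BDNF they numbered 5 raised and 0 lowered after 1 h, 2 raised and 3 lowered after 6 h, and 3 raised and 2 lowered after 10 h. With KCl they numbered 3 raised and 1 lowered at 1, 6 and 10 h alike. These counts stand against the same shares of all genes. Between the stimuli at 1 h, 2 of the 6 were higher with BDNF and 0 lower, beside 24.6% and 18.2% of all genes. The 8 receptors and coreceptors tested numbered 2 raised and 2 lowered after 1 h of BDNF, and 0 raised and 4 lowered both after 6 h and after 10 h. With KCl they numbered 2 raised and 2 lowered after 1 h, 2 and 1 after 6 h, and 1 and 1 after 10 h, against the same shares. Of the 11 Smads and nuclear partners, 3 rose and 3 fell at 1 h with either stimulus. Between BDNF and KCl, 12 of the 42 were higher with BDNF and 8 lower at 1 h (median log2 ratio 0.02), where 24.6% and 18.2% of all genes were. At 6 h 5 were higher and 20 lower (-0.39, background 29.6% and 27.8%), and at 10 h 7 and 15 (-0.25, background 23.1% and 21.8%). These roles and counts are small numbers of genes, and no test was made on the list.

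Of the listed genes, Wfikkn1, Mstn and Eng were among the 4 with the largest change in any comparison with controls. Wfikkn1, a secreted protein that binds myostatin and GDF11, stood at 4.57 to 7.83 normalised reads in controls. It stood at 101 and 96.2 with KCl at 1 h (log2 3.87 ± 0.33), and at 10.6 and 18.3 with BDNF at 1 h. Its mean reached the filter of 10 only through the KCl 1 h pair, so its call and rank there are not independent of the filter. Mstn, the myostatin ligand, shares type II receptors with the activins and read 3.92 to 19.8 in controls. It read 0 and 3.05 with BDNF at 1 h (log2 -2.49 ± 0.50, adjusted p = 0.000658 by limma), and 89.2 and 105 with KCl at 10 h (3.11 ± 0.50, adjusted p = 4.41e-05). Eng, the TGF-beta coreceptor endoglin, rose from 4.39 to 14.5 in controls to 61.7 and 71.6 with KCl at 1 h (2.70 ± 0.34, adjusted p = 1.01e-06). Eng is also made by endothelial cells. The summed markers of endothelial and mural cells averaged 835 with KCl at 1 h, against 386 to 1393 in single controls. Kdr, most of that sum, averaged 609, against 557, 774 and 624 in controls of 1, 6 and 10 h. Pecam1 of endothelium was highest with KCl at 1 h, at 22.3 against 9.26, 11.03 and 9.41 in these controls. Pdgfrb averaged 204 against 169, 183 and 196. The part of these cells in the Eng values was not tested.

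**Figure D4:**
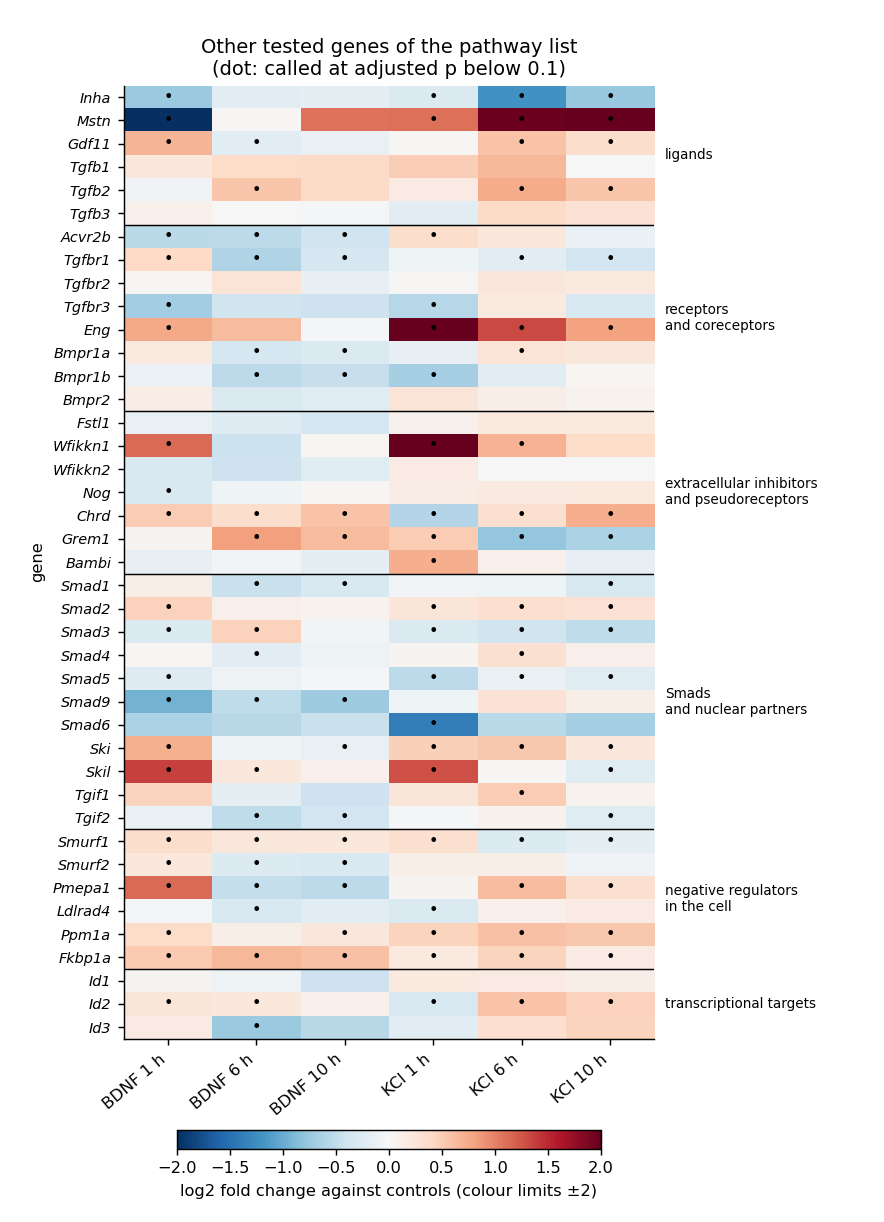
Log2 fold change against controls (colour, limits at ±2) of the tested genes of the wider pathway list, 1 left out, in the 6 comparisons (columns), grouped by role; a dot marks a call at adjusted p below 0.1. Mstn is lowest with BDNF at 1 h (-2.49) and highest with KCl at 10 h (3.11), and the darkest cells of Wfikkn1 (3.87) and Eng (2.70) are with KCl at 1 h.

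ATAC-seq gave a second readout of the same loci. The rule that names the genes uses no ATAC value, though the members were chosen with earlier results of these data known. Of 58177 peaks, 51 lay within 50 kb of the start of a member, and all 51 were among the 56383 tested. In at least 1 of the 6 comparisons with controls (edgeR, adjusted p below 0.1), 20 of them were called, where 31.3% of all tested peaks were. Of these, 10 were gained (19.0% of all peaks) and 10 closing (12.7%). With BDNF at 1 h, 8 were gained and 4 closing, where 12.5% and 4.78% of all peaks were. With KCl at 1 h, 4 were gained and 3 closing (5.29% and 3.05%). At 6 h, BDNF gave 5 gained and 0 closing (8.88% and 1.75%) and KCl 1 and 2 (5.44% and 2.06%). At 10 h, BDNF gave 5 and 1 (7.46% and 1.90%) and KCl 0 and 2 (5.91% and 1.96%). The counts near the members differed from these shares by small numbers of peaks, and no test was made on them. Acvr1, with 11 peaks, and Inhbb, with 9, each had 3 gained peaks, Acvr1c had 2 of 6, and of the 7 peaks near Acvr1b none was called in any of the 6 comparisons.

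Of the 10 peaks at a member's promoter, 3 were called in at least 1 of the 6 comparisons with controls, beside 31.3% of all tested peaks. Each was called in 1 comparison, and none by more than 0.573 on the log2 scale. The share over all promoter peaks was not computed. The Fst promoter gained with KCl at 1 h (log2 0.57 ± 0.17, adjusted p = 0.0291 by edgeR), from 77.4 to 102 scaled reads in controls to 124 and 137, at a time when the Fst transcript was not called. The promoter of Acvr2a was lower with BDNF at 1 h (-0.31 ± 0.12, adjusted p = 0.0722), as its transcript was. The promoter peak of Smad7 was lower with BDNF at 10 h (-0.41 ± 0.15, adjusted p = 0.0856), when its transcript was not called. All 3 of these calls were lost when either library of the stimulated group was left out (adjusted p = 0.125 and 0.336 for Fst, 0.509 and 0.135 for Acvr2a, 0.129 and 0.558 for Smad7). That of Acvr2a was also lost without control library A of 1 h (0.119), 6 h (0.132) or 10 h (0.146), and that of Smad7 without control 1 h library B (0.136) or control 6 h library A (0.127) or B (0.188). At the promoters of Inhba, Inhbb, Acvr1 and Acvr1c no comparison with controls was called.

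Away from the starts, 5 peaks near Inhba, Acvr1 and Acvr1c were gained with BDNF at all 3 times. Of all tested peaks, 12.5%, 8.88% and 7.46% were gained with BDNF at 1, 6 and 10 h. The share of all peaks gained at all 3 times was not computed, so this count cannot be set against a background. The first lay 22.5 kb before the start of Acvr1 (chr2:58589678-58589894, in an intron of the neighbouring gene Upp2). Its controls held 2.09 to 7.46 scaled reads, BDNF gave 40.7 and 54.3 after 1 h, 22.5 and 28.4 after 6 h, then 27.7 and 21.0 after 10 h, and KCl stayed between 3.99 and 12.1. It rose by 3.39 ± 0.42 on the log2 scale with BDNF at 1 h (adjusted p = 3.65e-11 by edgeR), 2.50 ± 0.45 at 6 h and 2.42 ± 0.49 at 10 h, while the KCl values of 0.82, 0.87 and 0.70 were not called (adjusted p = 0.414, 0.493 and 0.588). A second peak 12.8 kb before the start (chr2:58579963-58580485) went from 14.2 to 42.1 in controls to 57.2 and 66.2 with BDNF at 1 h, and KCl stayed between 18.6 and 33.7. Its log2 values with BDNF were 1.2 ± 0.28, 1.17 ± 0.28 and 1.03 ± 0.31 (adjusted p = 0.000436, 0.00103 and 0.0181), the last lost on leaving out BDNF 10 h library A (0.79, adjusted p = 0.375).

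Near Acvr1c, a peak in its own intron 7.01 kb after the start (chr2:58350671-58350888) read 0.976 to 6.46 scaled reads in controls. BDNF gave 26.9 and 17.7 after 1 h, 19.0 and 25.1 after 6 h, then 22.9 and 10.0 after 10 h, and KCl 12.1 and 7.15, 15.2 and 5.17, and 1.95 and 11.4. It was gained with BDNF at each time (log2 2.93 ± 0.53, 2.94 ± 0.52 and 2.48 ± 0.60, adjusted p = 3.89e-06, 4.92e-06 and 0.0019 by edgeR) and with KCl at 1 h (1.70 ± 0.60, adjusted p = 0.0759) and 6 h (2.05 ± 0.62, adjusted p = 0.0322). Both KCl calls were lost without library A of their group (adjusted p = 0.465 and 0.819), the KCl 1 h call also without library B (0.138), control 1 h library B (0.137) or control 10 h library B (0.121), and the BDNF 10 h call without library A (0.309). A further peak 30.7 kb before the start of Acvr1c, at the 3' end of Acvr1 (chr2:58388571-58389104), went from 4.72 to 16 in controls to 50.6 and 54.7 after 1 h of BDNF, then 56.4 and 57.7 after 6 h (2.25 ± 0.33 and 2.36 ± 0.33, adjusted p = 1.95e-08 and 5.04e-09). At 10 h BDNF gave 42.1 and 29.0 (1.66 ± 0.39, adjusted p = 0.00105), lost without library A (1.39, adjusted p = 0.112). KCl at 1 h gave 35.8 and 14.7 (1.14 ± 0.37, adjusted p = 0.0478), lost without library A of that group (0.42, adjusted p = 0.768) or control 1 h library A (0.99, adjusted p = 0.102).

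Near Inhba, a peak 31.9 kb before the start (chr13:15979689-15979951, in an intron of B230303A05Rik) read 1.03 to 15.2 scaled reads in controls. BDNF gave 24.2 and 26.8 after 1 h, 23.8 and 26.6 after 6 h, then 45.1 and 25.3 after 10 h, while KCl stayed between 4.72 and 10.1. Its log2 values with BDNF were 1.92 ± 0.45, 1.90 ± 0.45 and 2.36 ± 0.46 (adjusted p = 0.000535, 0.00088 and 5.49e-05 by edgeR), and none with KCl was called (-0.35, 0.20 and -0.09). The peak was therefore still gained at 6 and 10 h of BDNF, when Inhba transcripts read 43.2 and 38.4, and 38.4 and 34.1, against 41.5 to 58.9 in controls. With KCl at 10 h, when Inhba was 2.12-fold higher, none of its 4 peaks was called.

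**Figure D5:**
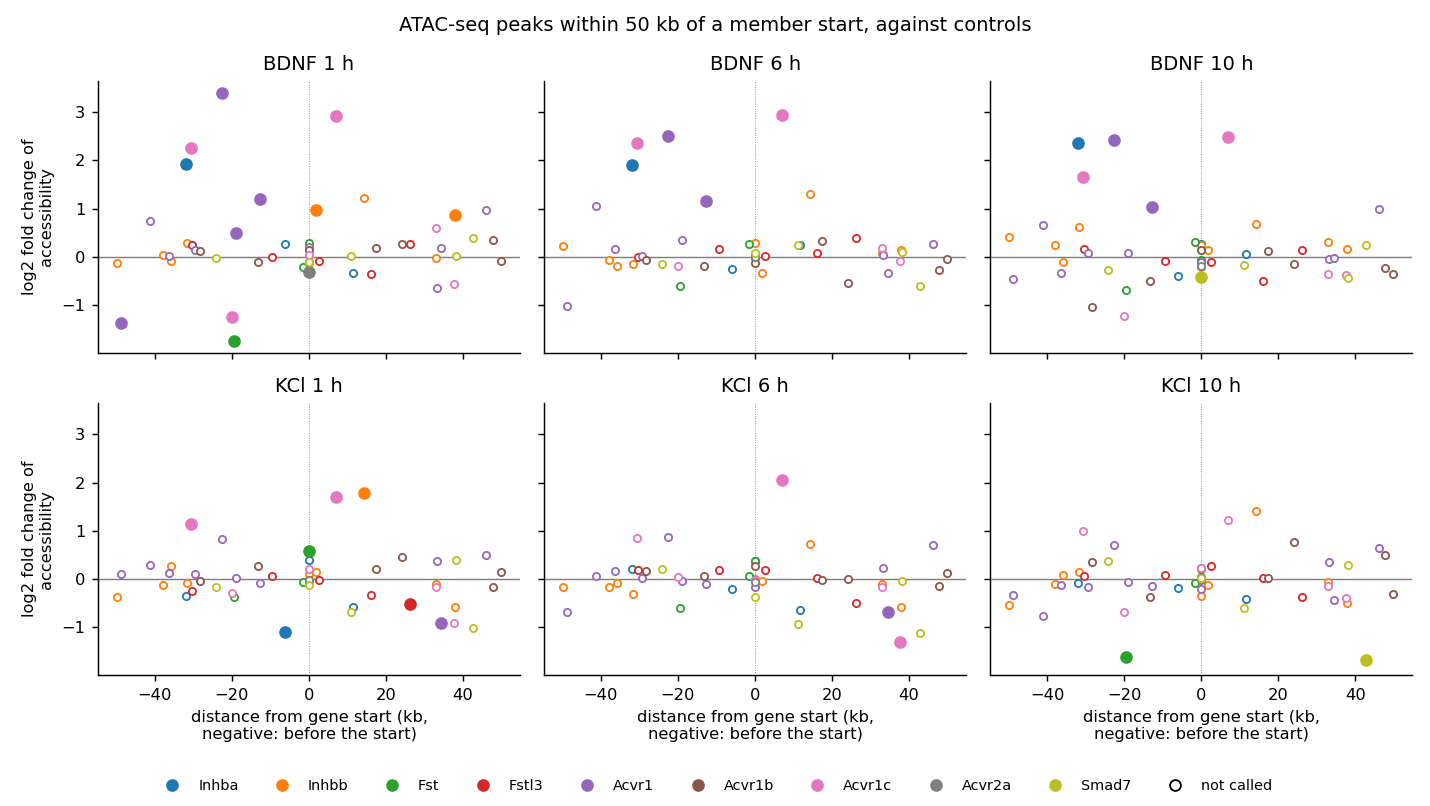
Log2 fold change of accessibility against controls (y) of the 51 peaks by distance from the member's start (x, kb), 1 panel per stimulus and time; colours are members, and filled points were called at adjusted p below 0.1. The same 5 distal peaks of Acvr1, Acvr1c and Inhba stay filled and high in the 3 BDNF panels, while with KCl 2 of them are filled at 1 h, 1 at 6 h and none at 10 h.

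The remaining members had fewer or less lasting calls. A peak 14.3 kb after the start of Inhbb, in no gene, was gained with KCl at 1 h (19.9 and 14 scaled reads against 1.4 to 9.18 in controls, log2 1.78 ± 0.51, adjusted p = 0.0218 by edgeR). This call was lost without library A of that group (1.44, adjusted p = 0.281) and against the controls of the same time alone (1.48, adjusted p = 0.249). The BDNF 1 h value there was 1.23 ± 0.53 (10.9 and 12.1 scaled reads, adjusted p = 0.121). For Inhbb, the smallest adjusted p was that of a peak 38.0 kb after the start (64.6 and 67.6 scaled reads with BDNF at 1 h against 27.9 to 43.6 in controls, log2 0.87 ± 0.27, adjusted p = 0.0143 by edgeR), lost without library B of that group (adjusted p = 0.164). For Fst it was a closing peak 19.5 kb before the start (2.65 and 10.3 with BDNF at 1 h against 17.0 to 29.3, -1.74 ± 0.50, adjusted p = 0.00685), lost without library A of that group (-1.12, adjusted p = 0.324). For Fstl3 it was a peak in Palm, 26.3 kb after the start, closing with KCl at 1 h (-0.52 ± 0.19, adjusted p = 0.0911). That call was lost without either KCl 1 h library (adjusted p = 0.226 and 0.531), either control 1 h library (0.131 and 0.110), control 6 h library A (0.142) or control 10 h library B (0.102). For Smad7 it was a closing peak 42.7 kb after the start with KCl at 10 h (5.02 and 7.58 against 12.8 to 32.1, -1.68 ± 0.52, adjusted p = 0.0324), lost without either library of that group (adjusted p = 0.329 and 0.145).

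Between the stimuli, 10 of the 51 peaks were more accessible with BDNF than with KCl at 1 h and 1 was less so, where 9.30% and 5.55% of all peaks were. At 6 h the counts were 3 and 0 (2.25% and 1.37%) and at 10 h 2 and 0 (1.16% and 0.830%). The peak 22.5 kb before Acvr1 differed by 2.57 ± 0.52 on the log2 scale at 1 h (adjusted p = 0.000187 by edgeR). The peak 12.8 kb before Acvr1 differed by 1.28 ± 0.35 at 1 h (adjusted p = 0.00755), lost without KCl 1 h library B (0.301), and by 1.28 ± 0.39 at 6 h (adjusted p = 0.0571), lost without any 1 of the 4 libraries compared (0.169 to 0.301). For the intronic peak of Acvr1c the differences of 1.23 ± 0.57, 0.89 ± 0.59 and 1.26 ± 0.67 at 1, 6 and 10 h were not called (adjusted p = 0.166, 0.513 and 0.419). The peak 31.9 kb before Inhba differed by 2.27 ± 0.59 at 1 h (adjusted p = 0.00439) and 2.45 ± 0.61 at 10 h (adjusted p = 0.0206). The 10 h difference was lost on leaving out BDNF 10 h library A (adjusted p = 0.261) or KCl 10 h library B (0.271). A peak within Acvr1, 34.4 kb after its start, closed with KCl at 1 h (48.1 and 49.2 against 85.1 to 102 in controls, -0.93 ± 0.20) and differed from BDNF by 1.12 ± 0.24 (adjusted p = 0.000402).

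The 200 bases at the centre of the 4 lasting BDNF peaks outside exons are shown because these peaks were gained at every time of BDNF. They were read from GRCm38 (mm10), plus strand, 5′ to 3′, and capitals mark matches on either strand to TGANTCA, with N any base. This takes in TGACTCA and its reverse complement TGAGTCA, the AP-1 site bound by Fos and Jun proteins. It also takes in TGAATCA and TGATTCA, which are not that consensus.
Inhba, 31.9 kb before the start, chr13:15979720-15979919: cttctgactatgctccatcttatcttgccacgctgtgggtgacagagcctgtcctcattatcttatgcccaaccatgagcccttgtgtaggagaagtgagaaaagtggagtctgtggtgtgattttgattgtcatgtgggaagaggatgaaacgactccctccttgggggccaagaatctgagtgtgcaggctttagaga
Acvr1, 22.5 kb before the start, chr2:58589686-58589885: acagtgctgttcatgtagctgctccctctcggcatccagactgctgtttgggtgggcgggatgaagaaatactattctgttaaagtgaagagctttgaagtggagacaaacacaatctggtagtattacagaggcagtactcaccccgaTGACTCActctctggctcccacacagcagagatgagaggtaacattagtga
Acvr1, 12.8 kb before the start, chr2:58580124-58580323: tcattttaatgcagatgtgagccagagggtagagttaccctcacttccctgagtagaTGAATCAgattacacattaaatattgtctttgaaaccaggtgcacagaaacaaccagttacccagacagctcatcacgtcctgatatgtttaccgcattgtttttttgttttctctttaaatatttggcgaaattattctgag
Acvr1c, 7.01 kb after the start, chr2:58350679-58350878: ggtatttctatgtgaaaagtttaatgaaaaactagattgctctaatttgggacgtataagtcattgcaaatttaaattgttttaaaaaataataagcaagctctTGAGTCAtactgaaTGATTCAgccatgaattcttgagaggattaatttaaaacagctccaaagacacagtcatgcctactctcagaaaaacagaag

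Of the 5 peaks gained with BDNF at all 3 times, 3 matched TGANTCA in this window. The peak 22.5 kb before Acvr1 held the AP-1 site TGACTCA, and the peak 12.8 kb before Acvr1 held only TGAATCA. The intronic peak of Acvr1c held the AP-1 site TGAGTCA and also TGATTCA. The Inhba window held no match, nor did that of the fifth peak, 30.7 kb before Acvr1c, whose letters are not shown. Windows of the same length around all 56383 tested peaks matched TGANTCA in 13.0% of cases. No match was found in the 5 to TGACGTCA, the cAMP response element (CRE), or to GCGNGGGCG, the EGR motif, which all windows held in 0.717% and 2.77% of cases. No match to one of these motifs can hold a whole match to another. Over the 51 windows near members, 11 matched TGANTCA, with 4 among the 10 gained peaks, 1 among the 10 closing ones and 6 among the 31 not called. In the 250 bases before the start, RefSeq promoter sequences of the same build were at hand for 7 members (8 starts), not for Fst and Smad7. None of these 8 held TGANTCA or CRE, and Acvr1b held EGR, while 6.75%, 1.55% and 4.70% of all 32851 promoters did. A match is a run of letters and says nothing of a bound factor, and the absence of one concerns only these windows.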

How the data were processed

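RNA was read by oligo-dT libraries and open chromatin by ATAC-seq in the same 9 groups. Per the labels and the study's methods, reads were aligned to mm10 (TopHat2 for RNA with GENCODE M16, bowtie2 for ATAC) and peaks were called with MACS2. For RNA, the counting program was not given in the sources used here. Signal values deposited for RNA are read counts per gene that the authors divided by DESeq2 size factors, and whole reads could be recovered from 100% of values within 0.01. The deposited ATAC values are raw counts per peak, unscaled by the authors. The authors' tables of differential genes and peaks hold log2 fold changes and p-values, and of these only the gene names were used.

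RNA was tested with limma 3.58.1 on log2(value + 1), with trend and robust settings, on genes with a mean of at least 10. Fold changes are on that scale, which understates those of low genes. ATAC was tested with edgeR 4.0.16 (quasi-likelihood, LOESS offsets), and scaled reads are counts divided by these offsets. Both tests were two-sided, errors in these are SE, and SDs are of 6 controls. Adjusted p-values are Benjamini-Hochberg over all features tested. DESeq2 1.42.0 and edgeR on recovered reads, TMM, other filters, pseudocounts, thresholds, same-time controls, a replicate block and leaving out each library were alternatives. Tests were tried on simulated data. Library letters follow the RNA columns and, for ATAC, column order, and serve as names. The study calls the samples of a group biological replicates. Genes were named as follows: all members, the 5 genes most correlated with the member of widest range, and the 4 pathway genes of largest change, 1 of which is not reported here. The members and lists were chosen with earlier results of these data known. Gene positions are from GENCODE M21 and promoters from RefSeq, both on the same build.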

Additional observations from a re-analysis of the deposited data

Results flagged for a closer look

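Among the 6 controls, 0 of 9 members but 3 of 51 peaks had a sample far from the others, where chance alone gives about 1 in 20. A peak 28.3 kb before the start of Acvr1b held 34.67 scaled reads in a control of 1 h against 20.3 to 22.9 in the other controls. A peak 19.99 kb before Acvr1c held 28.61 in a control of 6 h against 10.5 to 16.2. A peak 38.2 kb after the start of Smad7 held 21.45 in a control of 1 h against 10.9 to 14.8.

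In 16 cases the effect of a stimulus differed between times by the test of the difference (limma, adjusted p below 0.1), and the log2 differences were as follows. From 1 to 6 h of BDNF they were -0.2478 for Acvr1b, -0.6973 for Fst, -1.348 for Smad7, -0.5976 for Acvr1, -0.3974 for Inhbb and -1.156 for Inhba. From 1 to 6 h of KCl they were -1.417 for Fst, -0.2777 for Smad7, 2.68 for Acvr1c, 0.6712 for Acvr1, 0.8738 for Inhbb, 1.306 for Inhba and -0.4429 for Acvr2a. From 6 to 10 h of KCl they were -0.636 for Fst, -0.4915 for Smad7 and 0.5913 for Inhba.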

How the results depend on the processing

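With 2 samples a group, a left-out library leaves 1 that is assumed to vary like the other groups, and calls near the threshold are the least firm. Of 1920 alternative values of the members' 120 fold changes, 1829 were counted as unchanged, 67 were no longer called, 23 became called and 1 reversed. The reversed value was Acvr1c with KCl at 1 h, which gave 0.1924 without library A and -1.803 without library B. A reversal was counted only where the main or the alternative value was called, so values never called may have changed sign. Alternatives without an adjusted p counted as unchanged. RNA calls numbered 36 against controls (33 to 40 leaving out 1 library), 16 between stimuli (15 to 17) and 16 between times (13 to 19), the last 10 at adjusted p below 0.01. ATAC calls near members numbered 35 against controls (26 to 35 leaving out 1 library), but 16 at adjusted p below 0.01 and 10 within 10 kb of a start. Between stimuli they numbered 16, but 10 at adjusted p below 0.05, 5 below 0.01 and 1 within 10 kb, and 10 to 17 leaving out 1 library, with 10 without BDNF 1 h library A or KCl 1 h library B. TMM scaling gave 44 ATAC calls against controls and 20 between stimuli, and DESeq2 size factors gave 45 and 20. The DESeq2 test gave 40 and 12, and same-time controls gave 25 against controls. The cause of these shifts in ATAC calls was not tested, apart from the fewer peaks within 10 kb. The replicate block by column letter gave 37, 16, 16 and, between control times, 0 RNA calls. Letters did not match the labels' numbers, and of 36 group pairs 13 had deviations correlated above 0.1 (lowest -0.31, median 0.06, highest 0.42). Such deviations, of either sign, cannot show whether samples of 1 letter shared a culture, so pairing remains unknown. For ATAC no paired analysis was possible because its columns carry no replicate number. Depth limits Fstl3 and Acvr1c in RNA and peaks of under about 10 scaled reads.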
